A study of Homo sapiens with 5 samples.

Results

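The genes of the enzymes that add methyl groups to histones and those that remove them were examined in peak lists from HepG2 cells, a human liver cancer line. Members were the RefSeq protein-coding genes of GRCh38 whose symbols begin with KMT or KDM and a digit, with SETD or with PRMT, together with EZH1, EZH2, SUV39H1, SUV39H2, EHMT1, EHMT2, NSD1, NSD2 and NSD3. The rule found 57 symbols among 20033 genes. SETDB2-PHF11, a readthrough gene, shares its start and its start-end peaks with SETDB2, so 56 genes were counted, of which 36 are writers and 20 are erasers. The label of the group speaks of lysine methylation, but 8 of the writers are PRMT genes, whose proteins methylate arginine, and 7 are SET domain genes without one settled histone mark. The remaining 21 writers are lysine methyltransferases with a settled mark.

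CUT&Tag libraries had been made with 5 targets, 1 library each: Flag-tagged wild type ENL, Flag-tagged ENL carrying the Y78A substitution, and histone H3 acetylated, β-hydroxybutyrylated or crotonylated at lysine 9 (H3K9ac, H3K9bhb and H3K9cr). The series asks whether ENL meets H3K9bhb in native chromatin. The Flag-ENL cells express the tagged protein stably. Nothing used here gives the promoter of the construct, the number of clones, whether the cells kept their own ENL, or which cells served for the H3K9ac and H3K9cr libraries. Each group is a single library, so differences between libraries have no replicate check, no p-value was computed, and the intervals cover counting error over genes only.

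Histone lysine methylation works as a written and erased code. Methylation of H3K4 and H3K36 goes with transcribed genes, and methylation of H3K9, H3K27 and H4K20 mostly with silent chromatin. Most lysine writers have a SET domain, and the erasers are Jumonji or amine oxidase enzymes. An eraser family can act on several sites, as KDM4 does on H3K9 and H3K36. ENL, encoded by MLLT1, is a subunit of transcription elongation complexes that binds acylated lysines through its YEATS domain, and it is known in leukaemia as a fusion partner of the H3K4 methyltransferase KMT2A. β-Hydroxybutyrate is the ketone body that liver makes in fasting, and it is the source of the acyl group of H3K9bhb.

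The lists held between 3852 (H3K9cr) and 31493 (H3K9ac) peaks on the standard chromosomes, with median summits of 21 to 33 fragments, and they had been cut at different significance thresholds. The HepG2 label could not be settled from H3K9ac. Of 14 hepatic markers 9 had a gene-end peak, among them APOA1, APOB, AHSG and CEBPA (64.3%, 95% Wilson interval 38.8 to 83.7), near the 56.4% of all protein-coding genes, while ALB, AFP, TTR, SERPINA1 and FGB had none. Of 12 markers of other cell types, PECAM1 and ACTA2 had one (16.7%, 4.70 to 44.8), a share below that of all genes.

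The methylation enzyme genes carried peaks more often than protein-coding genes at large in 4 of the 5 libraries. A gene was counted when a peak overlapped 1 kb on either side of its start or its end by at least 1 bp. Wild type ENL had a peak at 27 of the 56 genes (48.2%, 95% Wilson interval 35.7 to 61.0), against 28.6% of all protein-coding genes. Y78A had one at 22 genes (39.3%, 27.6 to 52.4), against 14.6%. H3K9ac was found at 45 genes (80.4%, 68.2 to 88.7), against 56.4%, and H3K9bhb at 26 genes (46.4%, 34.0 to 59.3), against 23.8%. H3K9cr was found at only 5 genes (8.93%, 3.87 to 19.3), against 4.49%, and its interval includes the background share.

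**Figure D1:**
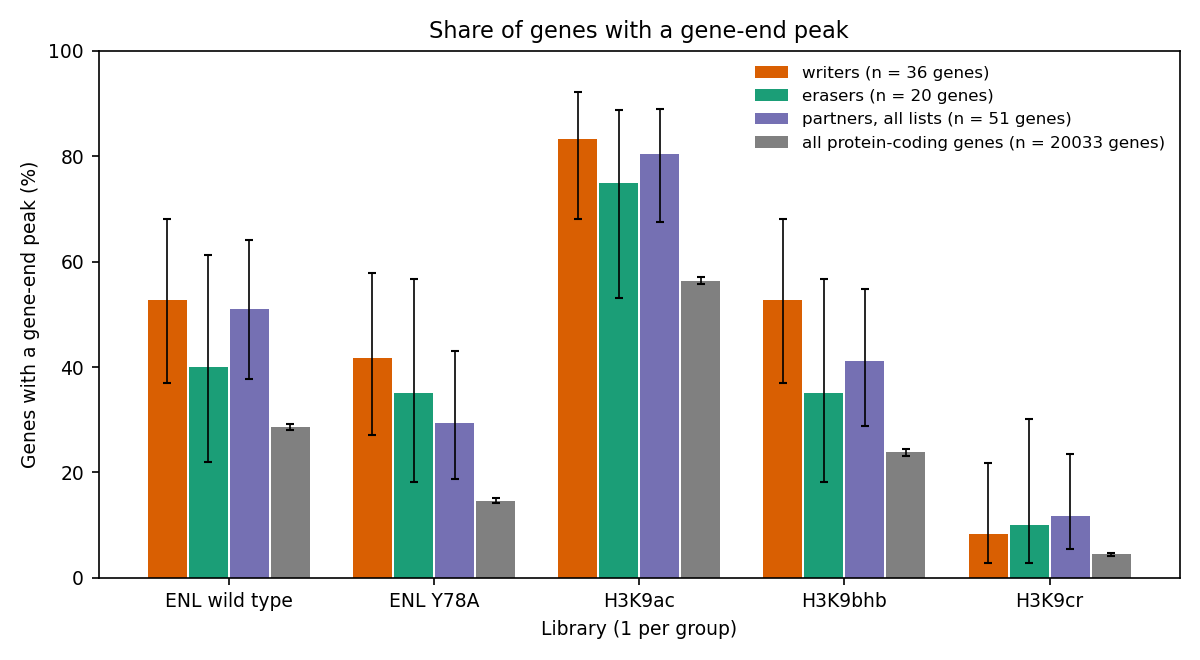
Bars show the share of genes (vertical axis, percent) with a gene-end peak in each of the 5 libraries (horizontal axis) for writer genes, eraser genes, partner genes and all protein-coding genes, and the lines are 95% Wilson intervals. For wild type ENL the writers stood at 52.8%, the erasers at 40.0% and all genes at 28.6%, and the writer and eraser intervals overlap in every library.

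Writers and erasers could not be told apart by how often they carried a peak. Wild type ENL had a gene-end peak at 19 of 36 writers (52.8%) and 8 of 20 erasers (40.0%), a difference of 12.8 points with a Newcombe interval from -13.8 to 36.5. For Y78A the counts were 15 and 7, a difference of 6.67 points (-19.5 to 30.0). For H3K9ac they were 30 and 15, a difference of 8.33 points (-12.2 to 31.9), and for H3K9bhb 19 and 7, a difference of 17.8 points (-9.06 to 40.5). H3K9cr had 3 and 2, a difference of -1.67 points (-22.5 to 13.6). With the 21 lysine writers alone, wild type ENL stood at 13 genes (61.9%), 21.9 points above the erasers (-8.05 to 47.0), and H3K9bhb at 12 genes (57.1%), 22.1 points above them (-7.79 to 47.1). Every one of these intervals contains 0, so at 36 and 20 genes a difference of these sizes was not detectable.

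The marks and the reader were mostly found at the same members. All 27 members with wild type ENL also had H3K9ac, against 98.0% of all genes with wild type ENL, and 24 of the 27 also had H3K9bhb (88.9%, 71.9 to 96.1), against 71.4%. Y78A was found at 20 of the 27 (74.1%, 55.3 to 86.8), against 49.8% of all genes with wild type ENL, and H3K9cr at 5 of them, against 14.4%. Read from the other side, 20 of the 22 Y78A members had wild type ENL (97.2% over all genes) and 19 had H3K9bhb (87.8% over all genes). Of the 26 members with H3K9bhb, 24 had wild type ENL (85.8% over all genes), 19 had Y78A (54.0%) and all 26 had H3K9ac (98.6%). The 5 members with H3K9cr all had wild type ENL and H3K9bhb, which 92.0% and 92.1% of all genes with H3K9cr had. Among the 45 members with H3K9ac, wild type ENL was found at 27 (60.0%, 45.5 to 73.0), against 49.7% of all genes with H3K9ac. H3K9cr was found at 5 of them (11.1%, 4.84 to 23.5), against 7.79%. Both intervals include the share of all genes with H3K9ac, so neither excess was separated from it. Y78A was found at 22 of the 45 (48.9%), against 25.6%, and H3K9bhb at 26 (57.8%), against 41.6%. The Wilson intervals of Y78A and H3K9bhb lie above those shares.

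The 56 genes fell into 9 combinations. KDM4A, KDM8, KMT2E, SETD9 and SETDB2 had a peak in all 5 lists (8.93% of members, 3.31% of all genes). The 4 lists other than H3K9cr were found together at 14 more members, 25.0% of them, against 9.22% of all genes without H3K9cr and 12.5% with or without it. These were EZH1, KDM1B, KDM2A, KDM4B, KDM6A, KMT2A, KMT2B, KMT5A, KMT5C, PRMT1, PRMT2, SETD2, SETD5 and SUV39H2. H3K9ac stood alone at another 14 members, a share of 25.0% that is near the 24.7% of all genes. No list had a gene-end peak at 11 members (19.6%), against 42.8% of all genes.

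**Figure D2:**
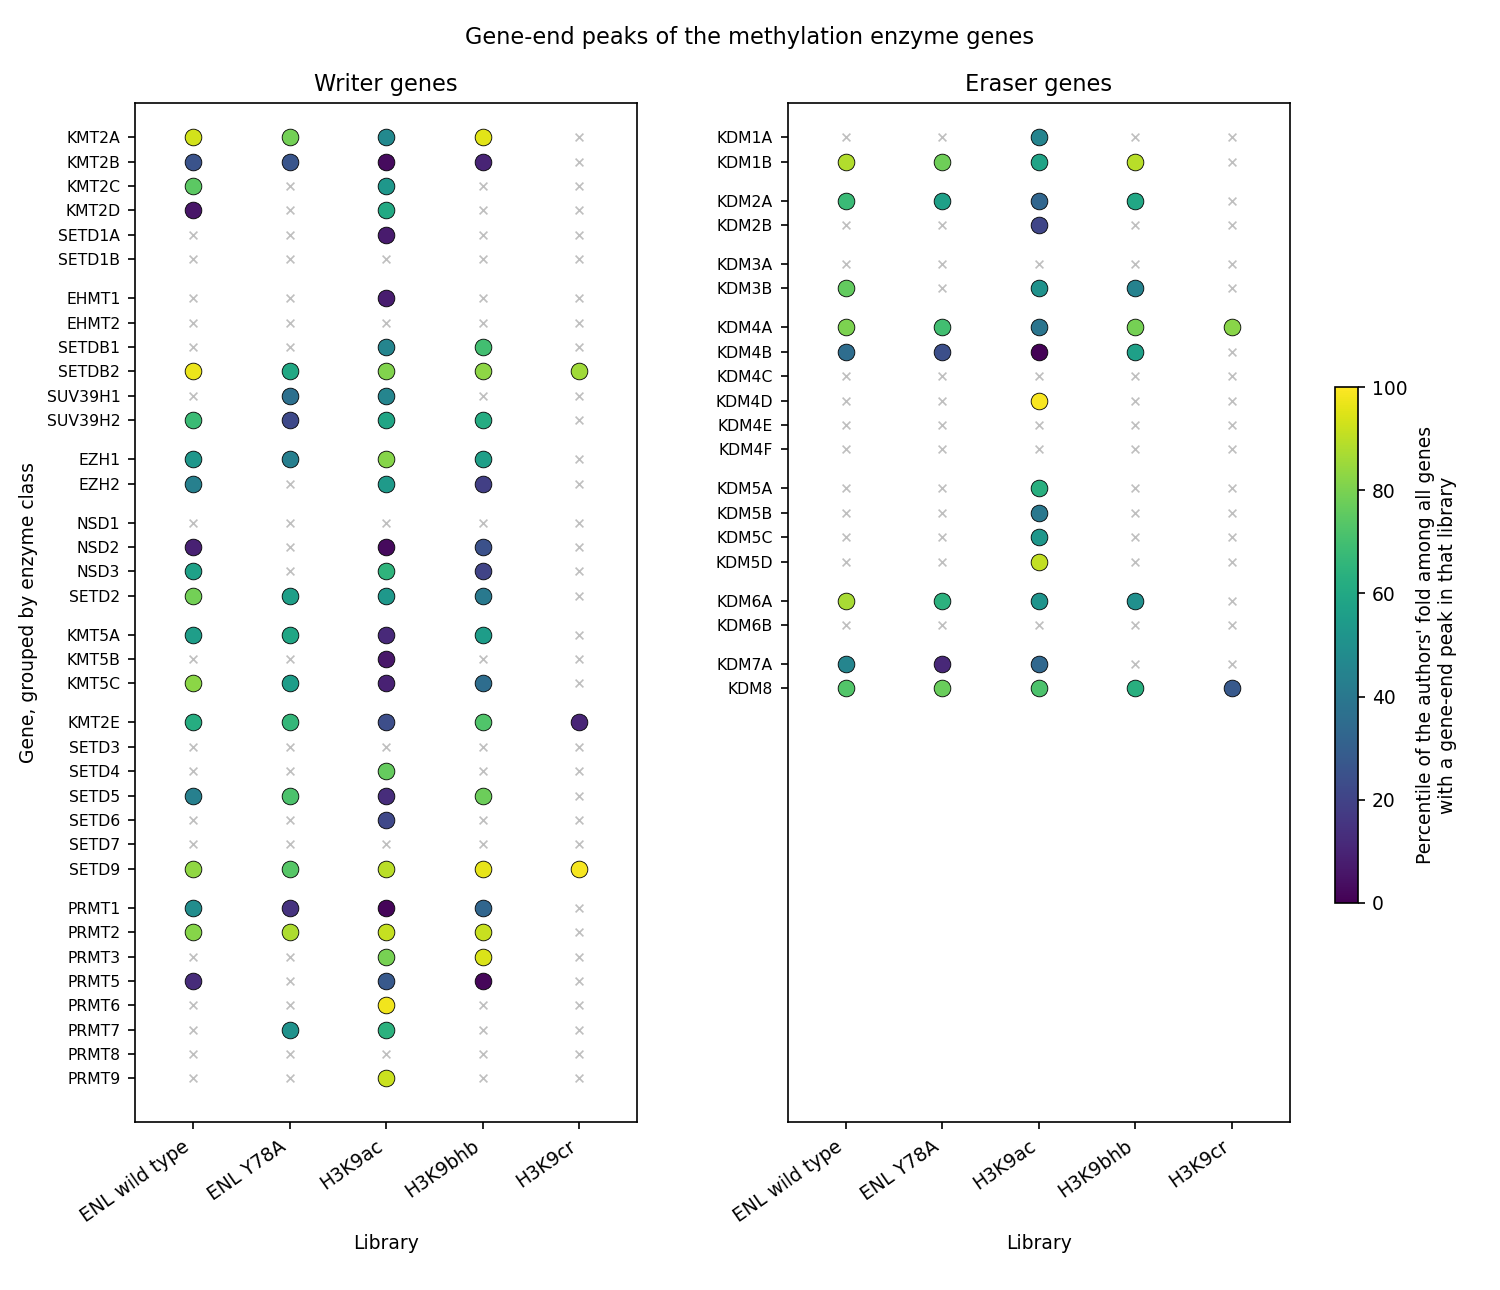
Each row is a member gene, grouped by enzyme class, and each column a library. Circles mark a gene-end peak, coloured by the percentile of the authors' fold among all genes with a gene-end peak in that library, and grey crosses mark no called peak. At their ends the 4 KDM5 genes carry H3K9ac only, while SETDB2, KMT2E, SETD9, KDM4A and KDM8 have circles in all 5 columns.

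Promoter sequences are shown for the members on which the contrast between wild type ENL and Y78A turns, with a pair that had no peak at a gene end but carried peaks at an inner start. SETDB2 (chr13:49444024-49444273, plus strand), KMT2A (chr11:118436242-118436491, plus), KDM1B (chr6:18155172-18155421, plus) and KDM6A (chrX:44872938-44873187, plus) had the highest wild type folds among members that also had Y78A. KDM3B (chr5:138352435-138352684, plus), KMT2C (chr7:152436004-152436253, minus), EZH2 (chr7:148884292-148884541, minus) and PRMT5 (chr14:22929377-22929626, minus) had the highest wild type folds without a Y78A peak apart from NSD3, whose sequence is not printed. These ran from 6.29 (KDM3B) down to 3.95 (PRMT5), and those of EZH2 and PRMT5 lie below the median of 5.24 over all genes with a wild type peak. SETD3 (chr14:99480860-99481109, minus) and KDM4C (chr9:6757723-6757972, plus) had no gene-end peak and the most CpG among such genes, KDM4C tied with KDM6B at 21. Each run is the 250 bases before the RefSeq start on GRCh38.p14, 5′ to 3′, and capitals mark exact matches on either strand to GGGCGG (bound by SP factors), CCAAT (bound by NF-Y), CCGGAAG (ETS factors) or CACGTG (the E-box), which in KDM3B overlap.
SETDB2: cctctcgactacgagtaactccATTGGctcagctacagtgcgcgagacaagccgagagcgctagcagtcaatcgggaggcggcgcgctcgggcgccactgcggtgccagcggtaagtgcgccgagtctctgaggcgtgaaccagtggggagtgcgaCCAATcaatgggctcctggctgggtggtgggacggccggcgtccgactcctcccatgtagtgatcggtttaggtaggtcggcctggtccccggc
KMT2A: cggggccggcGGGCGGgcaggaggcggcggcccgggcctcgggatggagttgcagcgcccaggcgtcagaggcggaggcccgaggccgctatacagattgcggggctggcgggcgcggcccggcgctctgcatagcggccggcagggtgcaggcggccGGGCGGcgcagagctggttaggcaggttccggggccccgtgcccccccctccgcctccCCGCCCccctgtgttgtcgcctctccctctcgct
KDM1B: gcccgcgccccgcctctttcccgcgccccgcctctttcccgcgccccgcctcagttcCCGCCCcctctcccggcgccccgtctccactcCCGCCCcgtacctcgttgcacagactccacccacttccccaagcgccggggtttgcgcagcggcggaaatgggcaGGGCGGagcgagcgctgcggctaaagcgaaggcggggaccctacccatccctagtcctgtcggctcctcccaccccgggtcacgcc
KDM6A: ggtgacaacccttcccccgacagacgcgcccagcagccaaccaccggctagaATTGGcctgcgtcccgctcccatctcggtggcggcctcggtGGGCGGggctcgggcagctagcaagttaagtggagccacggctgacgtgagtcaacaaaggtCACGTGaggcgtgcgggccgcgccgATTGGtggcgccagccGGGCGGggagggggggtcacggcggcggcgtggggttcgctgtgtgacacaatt
KDM3B: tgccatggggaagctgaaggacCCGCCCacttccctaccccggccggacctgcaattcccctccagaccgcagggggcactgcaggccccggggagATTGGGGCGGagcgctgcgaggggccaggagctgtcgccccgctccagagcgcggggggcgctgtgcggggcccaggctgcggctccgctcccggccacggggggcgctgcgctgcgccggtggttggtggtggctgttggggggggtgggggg
KMT2C: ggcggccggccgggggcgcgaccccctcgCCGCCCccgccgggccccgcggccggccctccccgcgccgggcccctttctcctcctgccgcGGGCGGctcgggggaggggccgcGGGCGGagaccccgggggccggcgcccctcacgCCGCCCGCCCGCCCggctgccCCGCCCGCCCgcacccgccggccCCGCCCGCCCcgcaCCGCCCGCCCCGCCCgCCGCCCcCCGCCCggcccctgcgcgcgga
EZH2: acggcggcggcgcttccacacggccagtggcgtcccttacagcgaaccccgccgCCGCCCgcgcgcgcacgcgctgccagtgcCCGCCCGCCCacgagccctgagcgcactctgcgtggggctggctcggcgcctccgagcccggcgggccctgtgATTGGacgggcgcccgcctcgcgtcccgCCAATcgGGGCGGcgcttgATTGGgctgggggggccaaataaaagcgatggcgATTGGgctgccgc
PRMT5: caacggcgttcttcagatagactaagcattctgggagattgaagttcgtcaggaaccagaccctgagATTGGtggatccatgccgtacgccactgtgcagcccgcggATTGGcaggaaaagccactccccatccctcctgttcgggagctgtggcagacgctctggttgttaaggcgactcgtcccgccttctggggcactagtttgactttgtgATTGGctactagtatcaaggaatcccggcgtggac
SETD3: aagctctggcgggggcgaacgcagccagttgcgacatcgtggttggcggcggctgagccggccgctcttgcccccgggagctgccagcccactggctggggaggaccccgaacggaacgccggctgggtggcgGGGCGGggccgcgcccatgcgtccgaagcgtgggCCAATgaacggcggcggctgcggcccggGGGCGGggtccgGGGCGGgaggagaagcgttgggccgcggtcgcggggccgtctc
KDM4C: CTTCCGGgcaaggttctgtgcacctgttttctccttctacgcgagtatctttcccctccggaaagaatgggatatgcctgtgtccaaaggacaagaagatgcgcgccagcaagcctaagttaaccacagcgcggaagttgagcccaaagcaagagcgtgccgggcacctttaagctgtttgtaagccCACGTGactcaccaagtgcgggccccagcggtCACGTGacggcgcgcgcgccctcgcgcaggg
The runs held from 14 CpG (PRMT5) to 48 CpG (KMT2C, with 92.0% G and C). A wild type ENL peak overlapped the printed run in 7 of the 8 genes with a gene-end peak, and that of KMT2C lay just upstream of it. The runs of SETD3 and KDM4C, which lie at inner starts, were also overlapped by wild type ENL, H3K9ac and H3K9bhb peaks, and that of SETD3 by a Y78A peak. CCAAT was found in SETDB2 and KDM6A among the first 4 and in KDM3B, EZH2 and PRMT5 among the next 4.

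KMT2A to KMT2D and SETD1A and SETD1B encode the catalytic subunits of the MLL and SET1 complexes, which methylate H3K4 at promoters and enhancers. In the sentences that follow, the fold is the authors' value for the strongest gene-end peak, the ratio of summit signal to local background, which can be compared only within a list, and summit fragments are the whole number recovered from that fold and its p-value. At KMT2A the wild type ENL peak (chr11:118435914-118436436, 523 bp) was 7.65-fold with 34 summit fragments. The Y78A peak there was 6.33-fold with 21 fragments, the H3K9bhb peak 7.62-fold with 35 and the H3K9ac peak 3.76-fold with 52. By gene, KMT2A thus stood near the top of the wild type and H3K9bhb lists, at percentiles 93.2 and 95.5, but at percentile 47.1 for H3K9ac. KMT2B, its closest relative, had all 4 peaks at lower folds, of 4.47 in wild type, 4.68 in Y78A, 3.76 in H3K9bhb and 2.22 in H3K9ac.

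KMT2C and KMT2D, the enhancer enzymes of this class, had wild type ENL without Y78A or H3K9bhb. The KMT2C peak (chr7:152436367-152436852, 486 bp) was 6.24-fold with 22 fragments, and its H3K9ac peak was 3.94-fold with 44 fragments. KMT2D had the lowest wild type fold of all 27 members, 3.53 with 18 fragments, and its strongest H3K9ac peak (4.16-fold) lay at the far end of the gene, where PRKAG1 also ends within 1 kb. SETD1A had H3K9ac alone (chr16:30958180-30959048, 869 bp, 2.45-fold, 60 fragments), and SETD1B had no gene-end peak. Wild type ENL was thus found at 4 of the 6 genes (66.7%, 30.0 to 90.3, against 28.6% of all genes), Y78A at 2 (33.3%, 9.68 to 70.0, against 14.6%), H3K9bhb at 2 (33.3%, 9.68 to 70.0, against 23.8%) and H3K9ac at 5 (83.3%, 43.6 to 97.0, against 56.4%). Classes of this size give wide intervals, and all but the first of these include the share of all genes.

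At their gene ends, all 4 genes of the opposing KDM5 family, the H3K4 demethylases, carried H3K9ac and no other peak. KDM5B also had an H3K9cr peak inside the gene (4.57-fold, 13 fragments). The H3K9ac peak of KDM5A (chr12:388509-389830, 1322 bp) was 4.27-fold with 38 fragments and is shared with CCDC77. That of KDM5B (chr1:202806894-202807666, 773 bp) was 3.57-fold with 48 fragments. On the sex chromosomes, the peak of KDM5C (chrX:53224317-53225878, 1562 bp) was 3.93-fold with 35 fragments and is shared with IQSEC2, and the peak of its Y-linked counterpart KDM5D (chrY:19744319-19745168, 850 bp) was 5.79-fold with 20 fragments. These folds lie at percentiles 40.2 to 91.0 of the H3K9ac list. With 4 genes, 0 peaks leave an upper Wilson limit of 49.0%, which includes the background share of wild type ENL. The H3K9ac interval, 51.0 to 100, likewise includes the 56.4% of all genes.

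Among the amine oxidase demethylases, which remove H3K4 methylation through a flavin cofactor, KDM1B had both ENL proteins and KDM1A did not. The KDM1B peak (chr6:18155069-18155781, 713 bp) was 7.10-fold with 33 fragments in wild type ENL, 6.30-fold with 23 in Y78A, 6.87-fold with 36 in H3K9bhb and 4.08-fold with 54 in H3K9ac. It lies between KDM1B and TPMT, and counts for both genes. KDM1A, the LSD1 gene, had H3K9ac alone (chr1:23018935-23020316, 1382 bp, 3.71-fold, 51 fragments).

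The 6 H3K9 methyltransferase genes each had another combination of peaks. SETDB2 had the highest wild type fold of all members, 8.38 with 29 fragments (chr13:49443854-49444523, 670 bp), at percentile 97.2 of all genes with a wild type peak. Its Y78A peak was 5.65-fold with 15 fragments, its H3K9bhb peak 6.41-fold with 25, its H3K9cr peak 4.72-fold with 18 and its H3K9ac peak 5.05-fold with 54. The start is divergent with that of CAB39L, and the peaks count for both genes. SUV39H2, which makes H3K9me3 at constitutive heterochromatin, had wild type ENL at 5.95-fold with 24 fragments, Y78A at 4.58-fold with 15, H3K9bhb at 5.42-fold and H3K9ac at 4.11-fold.

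Its X-linked paralog SUV39H1 had Y78A (chrX:48696408-48696615, 208 bp, 4.95-fold, 13 fragments) and H3K9ac (3.72-fold, 32 fragments) but no called wild type peak. SETDB1, the H3K9 methyltransferase recruited by TRIM28, had H3K9bhb (chr1:150926141-150926379, 239 bp, 5.73-fold, 17 fragments) and H3K9ac (3.73-fold, 34 fragments) with neither ENL protein. EHMT1, the GLP gene, had H3K9ac alone at its ends (chr9:137618047-137619016, 970 bp, 2.49-fold, 47 fragments). EHMT2, the G9a gene, had no gene-end peak. It lies on chromosome 6 in a gene-dense region where wild type ENL had a gene-end peak at 13 of 91 genes within 1 Mb on each side (14.3%) and H3K9ac at 34 (37.4%). The lists hold a further 149 wild type and 554 H3K9ac lines on other chromosome 6 contigs, which were not used, and whether any of them belongs to EHMT2 was not tested.

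Of the H3K9 demethylase genes, KDM3B had wild type ENL (chr5:138352436-138352957, 522 bp, 6.29-fold, 24 fragments), H3K9bhb (4.91-fold, 18 fragments) and H3K9ac (3.85-fold, 45 fragments) but no Y78A peak, and this was the highest wild type fold among the members without Y78A. KDM3A had no gene-end peak. In the KDM4 family, which acts on H3K9 and H3K36, KDM4A had a peak in all 5 lists, at 6.55-fold with 37 fragments in wild type ENL (chr1:43649805-43650674, 870 bp), 5.95-fold with 23 in Y78A, 6.22-fold with 40 in H3K9bhb, 4.60-fold with 30 in H3K9cr (chr1:43649846-43650132) and 3.53-fold with 49 in H3K9ac. KDM4B had wild type ENL at 4.78-fold, Y78A at 4.62-fold and H3K9bhb at 5.28-fold, but its H3K9ac peak was among the weakest of that list, at 1.97-fold.

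KDM4D had H3K9ac only, and its fold of 7.66 with 49 fragments was the highest H3K9ac fold of any member (chr11:94972990-94973927, 938 bp, percentile 99.0). That peak is shared with the divergent gene CWC15. KDM4E and KDM4F, short genes near KDM4D on chromosome 11, had none, and neither did KDM4C at its gene ends.

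Both H3K27 methyltransferase genes, which encode the alternative catalytic subunits of polycomb repressive complex 2, had wild type ENL, H3K9ac and H3K9bhb, and EZH1 alone had Y78A. The EZH2 peak (chr7:148884242-148884597, 356 bp) was 5.03-fold with 15 fragments in wild type ENL, 4.14-fold with 12 in H3K9bhb and 3.97-fold with 49 in H3K9ac. For EZH1 the values were 5.34-fold with 22 fragments in wild type, 5.12-fold with 17 in Y78A, 5.26-fold with 21 in H3K9bhb and 5.09-fold with 63 in H3K9ac. The wild type folds of the pair were close, and the EZH2 summit held fewer fragments. Of the H3K27 demethylase genes, KDM6A (UTX) had wild type ENL (chrX:44872702-44873153, 452 bp, 6.98-fold, 26 fragments), Y78A (5.75-fold, 13 fragments), H3K9bhb (5.06-fold, 13 fragments) and H3K9ac (3.90-fold, 41 fragments), and KDM6B (JMJD3) had no gene-end peak.

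Of the H3K36 methyltransferase genes, SETD2, whose enzyme trimethylates H3K36 behind elongating polymerase, was the only one with Y78A, with folds of 6.46 in wild type, 5.50 in Y78A, 4.81 in H3K9bhb and 3.95 in H3K9ac. NSD2 had wild type ENL (chr4:1870560-1871005, 446 bp, 3.76-fold, 22 fragments), H3K9bhb (4.34-fold, 27 fragments) and H3K9ac (2.17-fold, 39 fragments). NSD3 had wild type ENL at its lower end (chr8:38269143-38269541, 399 bp, 5.51-fold, 21 fragments), within 1 kb of PLPP5, and H3K9bhb at the opposite end (4.20-fold, 15 fragments), within 1 kb of LETM2. No strand was had for NSD3, so its start end is not given here. NSD1 had no gene-end peak. Among the H3K36 demethylase genes of the KDM2 family, KDM2A had wild type ENL at 5.93-fold, Y78A at 5.51-fold, H3K9bhb at 5.36-fold and H3K9ac at 3.36-fold. KDM2B had H3K9ac alone at its ends (chr12:121581058-121581534, 477 bp, 2.98-fold, 38 fragments), with wild type ENL (4.46-fold) and Y78A (4.84-fold) inside the gene.

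The H4K20 methyltransferase genes KMT5A and KMT5C had both ENL proteins with H3K9bhb and H3K9ac. KMT5C, which makes H4K20me3, had a wild type peak of 983 bp (chr19:55338879-55339861) at 6.68-fold with 61 fragments, a Y78A peak at 5.46-fold with 34, an H3K9bhb peak at 4.66-fold with 39 and an H3K9ac peak at 2.56-fold with 48. KMT5A, the monomethylase of the cell cycle, had folds of 5.45 in wild type, 5.61 in Y78A, 5.23 in H3K9bhb and 2.65 in H3K9ac. KMT5B had H3K9ac alone (chr11:68214102-68214587, 486 bp, 2.41-fold, 45 fragments). All 3 H3K9ac folds are low in that list, at percentiles 11.5 for KMT5A, 9.32 for KMT5C and 6.13 for KMT5B, while the wild type ENL fold of KMT5C stood at percentile 82.6.

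Of the 7 SET domain genes without one settled histone mark, KMT2E, SETD5 and SETD9 carried both ENL proteins. This is 42.9% for each protein (15.8 to 75.0), against 28.6% of all genes for wild type and 14.6% for Y78A. KMT2E, whose SET domain has no settled methyltransferase activity, had the most wild type fragments of any member, 85 (chr7:105012473-105013338, 866 bp), with a fold of 5.69, and 55 Y78A fragments at 5.83-fold. Its H3K9bhb peak was 5.87-fold with 40 fragments and its H3K9cr peak 2.97-fold with 22 (chr7:105013596-105014103). SETD5 followed with 80 wild type and 56 Y78A fragments over the widest wild type peak of the group, 1523 bp. SETD9 had its highest percentiles in H3K9bhb (7.73-fold, 31 fragments, percentile 96.1) and H3K9cr (chr5:56909708-56910085, 378 bp, 6.22-fold, 25 fragments, percentile 98.8), beside 6.74-fold with 22 fragments in wild type (chr5:56909276-56910100, 825 bp), 6.14-fold with 16 in Y78A and 5.65-fold with 60 in H3K9ac. SETD4 (chr21:36059633-36060809, 1177 bp, 4.80-fold, 41 fragments) and SETD6 (chr16:58515220-58516018, 799 bp, 3.01-fold, 51 fragments), the latter shared with NDRG4, had H3K9ac alone. SETD3, an actin histidine methyltransferase, and SETD7 had no gene-end peak.

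The arginine methyltransferase genes had H3K9ac at 7 of 8 (87.5%, 52.9 to 97.8, against 56.4% of all genes). Wild type ENL was found at 3 (37.5%, 13.7 to 69.4, against 28.6%), and both intervals include the share of all genes. PRMT1, the main asymmetric arginine methyltransferase, had 55 fragments at 5.20-fold in wild type and 29 at 4.33-fold in Y78A. PRMT2 had folds of 6.65 in wild type, 6.86 in Y78A, 7.12 in H3K9bhb and 5.81 in H3K9ac, at percentiles 82.0 to 91.6 in these lists. PRMT5, the main symmetric enzyme, had wild type ENL (chr14:22929400-22929717, 318 bp, 3.95-fold, 33 fragments), H3K9bhb (3.22-fold, 31 fragments) and H3K9ac (3.20-fold, 75 fragments) without Y78A.

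PRMT7 had Y78A (chr16:68310816-68311033, 218 bp, 5.34-fold, 13 fragments) and H3K9ac (4.29-fold, 57 fragments) without a called wild type peak, at an end shared with SLC7A6OS. It and SUV39H1 are the 2 members with that combination, which 43 of all genes had (0.215%). Both Y78A peaks held 13 summit fragments, the lowest number among members. With the summit required inside the window, Y78A was found at 21 members, 20 of them with wild type ENL. PRMT3, a ribosomal protein methyltransferase, had H3K9bhb at 7.42-fold with 22 fragments (chr11:20387236-20387482, 247 bp, percentile 94.3) and H3K9ac at 4.96-fold with 53 (chr11:20386971-20388997) with neither ENL protein. PRMT6 (chr1:107056797-107057890, 1094 bp, 6.99-fold, 32 fragments) and PRMT9 (chr4:147683706-147684409, 704 bp, 5.92-fold, 48 fragments) had H3K9ac alone, at percentiles 97.9 and 92.1. PRMT8, which is expressed mainly in brain, had no peak.

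The last erasers, KDM7A and KDM8, both had the 2 ENL proteins. KDM7A had 5.09-fold in wild type, 4.19-fold in Y78A and 3.38-fold in H3K9ac without H3K9bhb at its ends, and was the only member with that combination. An H3K9bhb peak of KDM7A (chr7:140175434-140175718, 4.12-fold, 17 fragments) had its summit 1460 bp inside the start, beyond the 1 kb window. KDM8, whose protein is better known as a hydroxylase and peptidase, had wild type ENL at 6.17-fold with 33 fragments (chr16:27203535-27204166, 632 bp), Y78A at 6.27-fold with 23, H3K9bhb at 5.47-fold with 32, H3K9cr at 3.39-fold with 21 (chr16:27203635-27203917) and H3K9ac at 4.59-fold with 66.

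Whether a member with wild type ENL also had Y78A went with the strength of its wild type peak. The 20 members with both had a median wild type −log10 p of 17.5 (range 11.8 to 37.5), and the 7 without Y78A a median of 11.7 (6.68 to 14.6). Over all genes these medians were 16.9 and 9.70. When all genes with wild type ENL were divided into 4 equal bins by −log10 p, Y78A was found at 11.6% of the genes in the lowest bin, then 30.8% and 63.9%, and 92.7% of those in the highest. Members in these bins with Y78A were 0 of 3 (EZH2, KMT2D and NSD2 lacked it), 1 of 3 (EZH1 had it, NSD3 and PRMT5 did not), 9 of 11 (all but KDM3B and KMT2C) and 10 of 10. KDM3B (24 wild type fragments, −log10 p 14.6) and KMT2C (22 fragments, 13.7) were the strongest wild type peaks without a called Y78A peak, while EZH1 was called in both with a wild type value of 11.8.

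**Figure D3:**
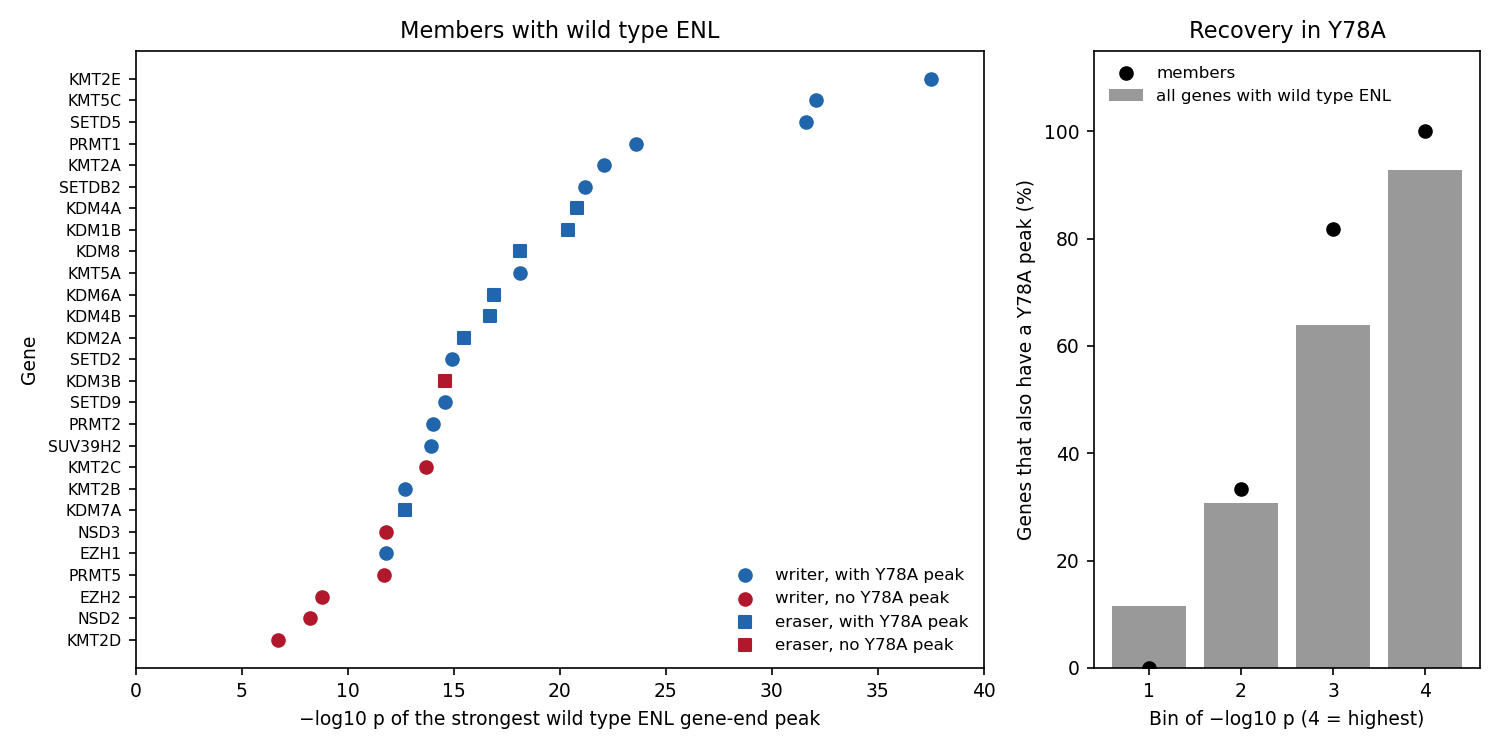
On the left, each point is a member with wild type ENL, placed by the −log10 p of its strongest gene-end peak (horizontal axis), blue with a Y78A peak and red without, circles for writers and squares for erasers. On the right, bars are the share of all genes (vertical axis, percent) with a Y78A peak in each of 4 bins of wild type −log10 p and points the share of members. All 10 members in the highest bin had Y78A and none of 3 in the lowest.

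Where both proteins were called, the Y78A summit was lower at 20 of 20 members. The ratio of Y78A to wild type summit fragments ranged from 0.500 to 0.810 with a median of 0.639, and over all 2852 genes with both the median was 0.656, with Y78A lower at 96.6%. The median was 0.647 for 13 writers and 0.622 for 7 erasers. The most frequent background of the Y78A list was 0.841 times that of wild type, a measure of relative depth, so depth and occupancy cannot be told apart in these ratios. Wild type and Y78A peaks overlapped at all 20 genes, near the 99.3% of all genes with both. Erasers with wild type ENL had Y78A at 7 of 8 (87.5%, 52.9 to 97.8) and writers at 13 of 19 (68.4%, 46.0 to 84.6), and these intervals overlap.

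The H3K9ac peaks of members were described with and without ENL. The 16 genes with H3K9ac but neither ENL protein had a median H3K9ac −log10 p of 13.1, 46.0 summit fragments and a width of 954 bp, and the 27 with wild type ENL had 16.0, 49.0 fragments and 993 bp. Over all genes the same values were 12.7, 41.0 and 826 bp against 16.3, 53.0 and 1120 bp. The ranges of −log10 p overlapped widely among members, 7.55 to 29.7 against 4.78 to 27.4. KDM4D and PRMT9 had strong H3K9ac gene-end peaks without ENL, and KDM4B, PRMT1 and NSD2 had weak ones with it. This holds for the 1 kb window only. Inside KDM4B lay a further H3K9ac peak of 2.82-fold with 60 fragments. PRMT1 had further H3K9ac peaks at inner starts, of 46 and 50 fragments.

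ENL and H3K9bhb summits lay upstream of the members' starts, and H3K9ac summits on both sides. For members with a known strand, the strongest wild type ENL (26 genes), Y78A (22), H3K9bhb (25) and H3K9cr (5) peaks were all at the start end. The share of all genes with their strongest peak at the start end was not counted, so this is no trait of the members. The wild type summit was upstream of the nearest RefSeq start in 21 of 26 (80.8%, median -162 bp), against 69.3% of all genes (median -113 bp). For Y78A it was upstream in 19 of 22 (86.4%), against 72.5%, and for H3K9bhb in 22 of 25 (88.0%, median -216 bp), against 66.4% (median -112 bp). For H3K9ac 20 of 43 were upstream (46.5%), against 40.3%. At KMT2E the strongest peaks were the farthest upstream, at -1306 bp for wild type and -1296 bp for H3K9bhb.

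**Figure D4:**
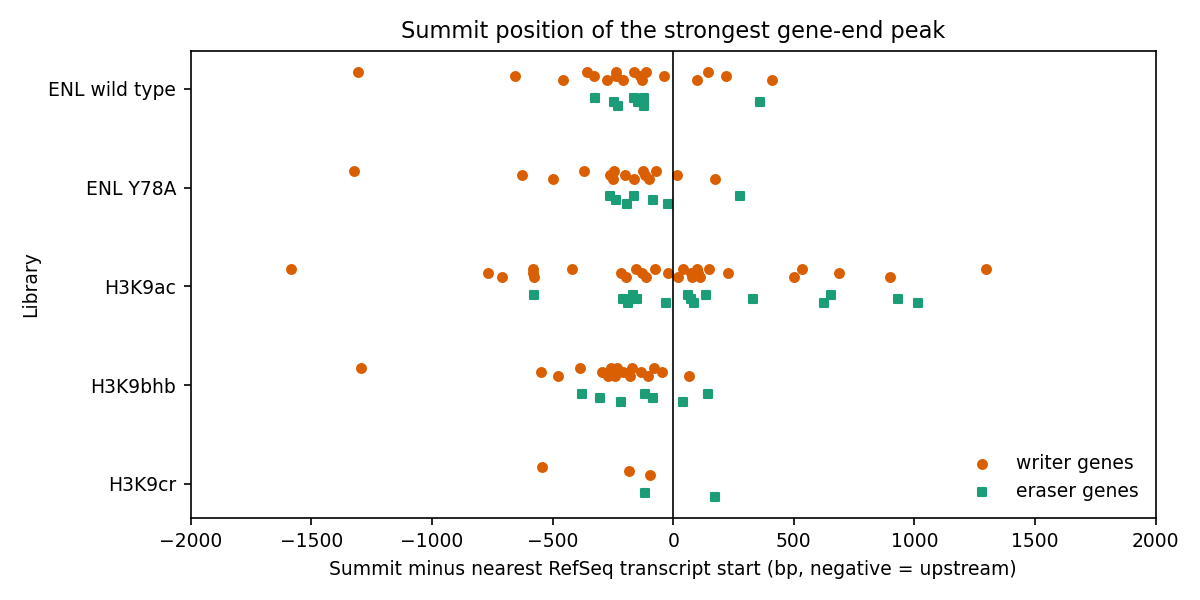
Each point is the summit of the strongest gene-end peak of a member, placed by its distance from the nearest RefSeq transcript start in bp (horizontal axis, negative upstream), for each library (rows), with writers as circles and erasers as squares. Most ENL and H3K9bhb summits lie left of 0, as 21 of 26 wild type summits do, and H3K9ac summits spread on both sides. One H3K9ac summit, that of KMT2D at the far end of the gene, lies outside the axis.

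By median distance between strongest gene-end summits, wild type ENL lay nearer to H3K9bhb than to H3K9ac. Wild type and H3K9bhb peaks overlapped at 23 of 24 members with both, all but NSD3, and at 98.6% of all genes with both. The median between the strongest summits was 65.5 bp, against 66.0 bp over all genes. Wild type and H3K9ac peaks overlapped at 24 of 27, against 97.4% of all genes, with a median of 201 bp between summits, against 173 bp. The medians cover different sets of members, and H3K9ac peaks were wider (median 993 bp) than H3K9bhb peaks (382 bp). What width adds to these distances was not tested. The 3 members whose wild type and H3K9ac peaks did not overlap were KMT2B, KMT2C and KDM4B. At KMT2B and KDM4B the H3K9ac peak lay downstream of the start, with its summit at 898 and 931 bp, and ENL upstream, at -330 and -227 bp. KMT2C had the same arrangement, with H3K9ac at 1298 bp and wild type ENL at -655 bp.

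Several members without a gene-end peak carried peaks at an inner start. RefSeq extents that include a far upstream isoform place the start in the promoter table inside the gene, and the alternative of counting peaks at gene ends or at any RefSeq start was chosen after seeing the data. At KDM3A, an H3K9 demethylase induced by hypoxia, the inner start, 4327 bp into the gene, held a wild type peak of 7.69-fold with 47 fragments (chr2:86440737-86441482, summit at -382 bp from that start), with Y78A at 6.70-fold, H3K9bhb at 6.82-fold and H3K9ac at 3.64-fold. At SETD3 the wild type peak (chr14:99480791-99481427) was 7.90-fold with 35 fragments, Y78A 7.06-fold and H3K9bhb 5.64-fold, within 1 kb of an end of CCNK, the cyclin K gene. At KDM4C the inner start, 37110 bp into the gene, held wild type ENL at 5.01-fold with 29 fragments, H3K9bhb at 4.55-fold and H3K9ac at 3.75-fold. KDM2A had another ENL peak at an inner start, 5.92-fold in wild type and 5.54-fold in Y78A.

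Counted in this way, wild type ENL was found at 30 members (53.6%), against 30.3% of all genes, Y78A at 24 (15.7% of all genes), H3K9ac at 48 (59.4%), H3K9bhb at 29 (25.4%) and H3K9cr at 5 (4.99%). With peaks anywhere in the gene the counts were 34 (35.9% of all genes), 29 (19.1%), 50 (64.8%), 33 (31.2%) and 8 (9.34%). Members are long, with a median of 53.0 kb against 24.1 kb for all genes, so the last counts draw on more sequence per gene. KDM6B had 3 wild type, 3 Y78A and 3 H3K9ac peaks inside the gene, the strongest wild type one 3.49-fold with 62 fragments, 1.60 kb from the gene start. That wild type peak also lay within 1 kb of an end of the protein-coding gene LOC124904106. SETD1B had 3 wild type, 3 Y78A, 4 H3K9ac and 1 H3K9bhb peak inside, the strongest wild type one 3.06-fold with 66 fragments. EHMT1 had an intragenic place with a peak in all 5 lists (chr9:137716126-137716528 in wild type), 97.3 kb from the gene start, at 6.90-fold with 29 fragments in wild type, 6.74-fold with 22 in Y78A, 5.71-fold with 28 in H3K9bhb, 6.28-fold with 39 in H3K9cr and 3.25-fold with 18 in H3K9ac.

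The promoter windows of the members were CpG-rich. RefSeq promoter entries matched 53 of the 56 genes, all but NSD3, SETD1B and KDM4E. Their 250 bases before the start held a median of 23.0 CpG against 17.0 in all promoters, and 26 members with wild type ENL held 26.5 against 22.0 in all genes with wild type ENL. GGGCGG was found in 37 of the 53 (69.8%), against 55.8% of all promoters, CCAAT in 18 (34.0%), against 34.5%, and CACGTG in 9 (17.0%), against 7.80%. CCGGAAG was found in 7 (13.2%), against 11.7%: KDM2B, KDM4C, KDM4D, KDM7A, PRMT3, SETD4 and SETD6. One of these, KDM7A, was among the 26 wild type ENL members (3.85%), while 18.2% of all wild type ENL genes held these letters. Another 5 were among the 18 with H3K9ac and no wild type ENL (27.8%), where all such genes had 16.4%. These groups count ENL at gene ends only. KDM4C is in neither group, although a wild type ENL peak overlapped its window, which lies at an inner start. TATAAA was in 0 of 53 (9.36% of all promoters), AAGATGGC (YY1) in 0 (1.41%), TGACGTCA (CRE) in 1 and the NRF1 word, GCGCA followed by its reverse complement, in 1. Both strands were searched, matches are descriptions of letters, and 8 words were tried.

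The genes of non-catalytic partners and of enzymes outside the symbol rule were counted in the same way. Of 51 such genes, 26 had wild type ENL (51.0%, 37.7 to 64.1), 15 Y78A (29.4%, 18.7 to 43.0), 41 H3K9ac (80.4%), 21 H3K9bhb (41.2%) and 6 H3K9cr (11.8%). The shares of all protein-coding genes were 28.6%, 14.6%, 56.4%, 23.8% and 4.49%, in the same order. Y78A was found at 14 of the 26 with wild type ENL (53.8%, 35.5 to 71.2), near the 49.8% of all genes with wild type ENL. The interval overlaps that of the members. Among 12 subunits of the H3K4 methyltransferase complexes, all had H3K9ac and 8 had wild type ENL (66.7%, 39.1 to 86.2, against 28.6% of all genes). Y78A was found at 2 of the 12 (16.7%, 4.70 to 44.8, near the 14.6% of all genes), ASH2L (5.94-fold, beside 7.41-fold in wild type) and CXXC1 (4.17-fold beside 5.98-fold). RBBP5, DPY30, MEN1, HCFC1, NCOA6 and PAGR1 had wild type ENL without Y78A, at folds of 3.07 (PAGR1) to 6.01 (RBBP5).

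Of 11 polycomb repressive complex 2 subunits other than the EZH enzymes, 6 had wild type ENL (54.5%, 28.0 to 78.7, against 28.6% of all genes). Y78A was found at 5 of these 6 (45.5% of the 11, 21.3 to 72.0, against 14.6%). JARID2, an accessory subunit, had a peak in all 5 lists, with 5.69-fold in wild type and 6.17-fold in H3K9bhb. Of 11 partners of H3K9 methylation, 6 had wild type ENL and 6 Y78A (54.5% for each, 28.0 to 78.7). Among them were the heterochromatin protein genes CBX3 (70 wild type and 45 Y78A fragments) and CBX5 (77 and 51). WIZ, a partner of EHMT1 and EHMT2, also had both (38 and 28). TRIM28 had 39 wild type and 35 Y78A fragments. MPHOSPH8 had Y78A without wild type. Of 17 enzymes outside the rule, 6 had wild type ENL (35.3%, 17.3 to 58.7) and 2 Y78A (11.8%, 3.29 to 34.3). The wild type intervals of the polycomb, H3K9 and outside-rule lists all include the 28.6% of all genes. The Y78A share of the outside-rule list is near the 14.6% of all genes. CARM1, an arginine methyltransferase gene also known as PRMT4, had 7.90-fold in wild type and 8.32-fold in Y78A with 47 and 35 fragments. DOT1L, the H3K79 methyltransferase that binds ENL, had wild type ENL at 2.89-fold with 52 fragments and H3K9ac at 2.17-fold, with no Y78A or H3K9bhb peak.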

How the data were processed

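Peak lists of 5 CUT&Tag libraries of HepG2 cells were used, 1 library per group, grouped by their titles. Per the submitters' processing notes, the build was hg38 and the tools were Bowtie2, FastQC, MACS2 and deepTools, with no version or setting. The deposited fold is the ratio of summit signal to background, the deposited p and q columns hold −log10 values, and the score that the authors deposited is a whole number made from q. The deposited positions and summit offsets are in base pairs. Nothing used here gives control libraries, read totals or duplicate handling. The smallest deposited −log10 q ranged from 1.31 (H3K9ac) to 2.05 (wild type ENL), so the lists were cut differently. Names inside the H3K9ac list begin with ENL, and the label was followed.

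The members and the lists of classes and partners were chosen with earlier results of these data known. Peaks on 24 standard chromosomes were joined to the RefSeq genes of GRCh38.p14, the build also named hg38, with 1 kb on both sides of each gene end (bedtools 2.31.1 for the check, pandas 2.3.3 for the counts). Strand and starts came from the RefSeq promoter table. The fold and −log10 p of at least 99.98% of peaks in each list were matched by a whole number of fragments over a Poisson background, within a relative tolerance of 3e-05. Genes given in full were the 6 highest wild type folds with and without Y78A, the members with Y78A or H3K9ac and no wild type ENL, those with H3K9cr and the 3 highest H3K9bhb folds without Y78A. On simulated data 100% of 30 planted genes and 100% of 2000 fragment numbers were found. The planted peaks all reached the window and the fragments came from the formula being inverted, so this checks the code only. On the wild type list, 0 of 20033 genes differed from bedtools. Alternatives changed the window, the gene ends used, the threshold, the list length and the members.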

Additional observations from a re-analysis of the deposited data

How the results depend on the processing

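Of 150 alternative values for counts and differences, 139 stayed within 1.5 times the reported count or within its interval and 11 moved. The differences were judged against their wide Newcombe intervals, and all stayed within them. Setting the same −log10 q minimum for all lists changed no count. The shares of all genes were recomputed only for peaks at gene ends or any RefSeq start and for peaks anywhere in the gene. H3K9cr was found at 8 members with peaks anywhere in the gene, at 3 at a −log10 q of at least 5 and at 3 of the lysine enzymes alone, against 5, and the members with H3K9ac that also had H3K9cr numbered 8, 3 and 3 in the same settings. In lists of equal length (the 3852 strongest peaks of each), H3K9ac was found at 15 members and H3K9bhb at 17, and of those 15 members wild type ENL was found at 8, Y78A at 8 and H3K9bhb at 9. Fewer peaks per list are part of that setting. Y78A was found at 16 of 18 members with wild type ENL there. Of the 12 members named for their wild type fold, the equal-length wild type list held 7, and the start-end setting gave no value for NSD3. A peak's fold is a deposited value that these settings cannot alter. Writers minus erasers in wild type ENL ranged from -4.44 to 21.9 points, in Y78A from -5.00 to 7.86, in H3K9ac from -1.11 to 18.3, in H3K9bhb from 8.33 to 22.1 and in H3K9cr from -8.89 to 0.556, with 0 intervals that left out 0. No paired analysis was possible because each group has 1 library, so no library could be left out either. Summits of 21 to 33 fragments limit what could be called, and a gene without a peak is one where none was called at this depth.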

Other observations

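Wild type ENL peaks lay inside SETD5, KDM4C, EHMT1, KDM2A, KDM2B, SETD1B and KDM6B, over 1 kb from any start of the same gene in the promoter table. The strongest of these in KDM6B lay within 1 kb of an end of another protein-coding gene, LOC124904106. SETD1B has no entry in that table, and the share of all genes with such a peak was not counted. SETD5 had one 25.4 kb from its start with 8.31-fold and 31 fragments in wild type ENL, a higher fold than its start peak, and 7.39-fold with 21 fragments in Y78A, with H3K9ac at 3.48-fold and no H3K9bhb peak there. KDM2B, which had no ENL peak at its ends, had one at 82.2 kb from the nearest gene end with 4.46-fold in wild type and 4.84-fold in Y78A. H3K9cr was found inside 3 members that lacked it at their ends: EHMT1 (6.28-fold, 39 fragments), KDM5B (4.57-fold, 13 fragments) and KDM4B (3.04-fold, 27 fragments). Counting peaks anywhere in the gene raised the share from 8.93% to 14.3% of members, and from 4.49% to 9.34% of all genes. The rise was thus similar in both, and members are longer. The EHMT1 value is above that of any H3K9cr gene-end peak of a member, of which SETD9 had the highest at 6.22-fold. KDM4C had 10 H3K9ac peaks inside the gene, 9 of them away from its inner start.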
